A study of Homo sapiens with 4 samples.

Results

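The matrix metalloproteinases MMP1, MMP2, MMP7, MMP9, MMP10, MMP13, MMP14, MMP15, MMP24 and MMP25 were examined in motile and immotile cells of the colon cancer line HCT116. The 10 genes were given by name, in a list drawn up with earlier results of these data known, and their probes were found through the RefSeq accession that the array gives for each probe. All 10 had a matched probe, 11 probes in total, among 21607 gene symbols matched on the array. A probe was taken as measured where its signal was well above background on all 4 arrays, and 6 of the 10 genes, MMP1, MMP7, MMP9, MMP14, MMP15 and MMP25, had such a probe. Across the array 15707 genes or unnamed transcripts were measured in this sense.

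Matrix metalloproteinases are zinc-dependent endopeptidases that cleave collagens, laminins, proteoglycans and many cell surface proteins. They are made as inactive proenzymes in which a cysteine of the propeptide blocks the active site, and they are held in check by the tissue inhibitors of metalloproteinases. Most are secreted, whereas MMP14, MMP15 and MMP24 carry a transmembrane domain and MMP25 a lipid anchor. In colorectal tumours much of the collagenase and gelatinase comes from stromal and inflammatory cells, whereas MMP7 is made by the epithelial tumour cells themselves.

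HCT116 cells had been passed repeatedly through a transwell migration chamber, and those that migrated (MG cells) and those that did not (non-MG cells) were kept as separate cultures, so that each subpopulation is 1 selected culture of the same line. Each received vehicle or 5 µM 5-azacytidine, which blocks the enzymes that methylate DNA, over 48 h. The 4 conditions, non-MG cells with vehicle, non-MG cells with 5-azacytidine, MG cells with vehicle and MG cells with 5-azacytidine, were each hybridised to 1 one-colour Agilent array. The question put to these genes is whether the migrating cells carried more protease mRNA.

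With 1 array per condition there was no replicate, and no test between conditions was made. A level below is the log2 intensity minus the log2 of the 75th percentile of that array, and a ratio is the difference of 2 such levels. A gene is written as higher or lower, risen or fallen, where its ratio passed 1.5-fold, which is 0.585 on the log2 scale. The error given with a ratio is the spot error, which combines both arrays and covers spotting and scanning only. For a probe with 1 spot per array it rests on the SD over repeat spots of similarly bright probes that were spotted 10 times. For a probe spotted 10 times, such as those of MMP1 and MMP9, it rests on the standard error of the mean of its own spots. The errors of these probes are therefore smaller by construction and are not comparable with those of probes with 1 spot. Intensities below are not scaled between arrays. The 75th percentile was 87.01 in non-MG cells with vehicle and 75.16 with 5-azacytidine, and 98.68 and 96.45 in MG cells. Directions between arrays are therefore to be read from the ratios, which can differ in sign from the intensities. The lowest intensity well above background was between 9.946 and 11.82 on the 4 arrays. Between 21382 and 21881 of 50594 probes were well above background, and no spot was saturated. The arrays lay on 1 slide, with the cell types in different rows and the treatments in different columns, so that position cannot be told apart from either. The colon epithelium markers EPCAM, KRT8, KRT18, KRT19, CDX2 and CDH1 were well above background on all 4 arrays, 6 of 7 listed, and VIL1 was not. Of the 7 fibroblast markers 1 or 2 were well above background (COL1A1 and THY1), of the 7 macrophage markers 1 to 3 (CD14, CSF1R and MSR1) and of the 5 endothelial markers 1 (VWF).

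With vehicle, none of the 6 measured metalloproteinases was higher in MG than in non-MG cells, against 5.67% of all measured genes. MMP25 was lower, 1 of 6 against 8.24% of all genes. With 6 genes, neither count sets the members apart from all genes. MMP25 had also been chosen by the study from these same arrays for being low in MG cells. The median ratio of the 6 was -0.20, and that of all genes was -0.01. With 5-azacytidine on both sides 1 of 6 was higher in MG cells (MMP7), against 5.74% of all genes, and 1 was lower (MMP25), against 7.34%. This MMP25 call, at -0.71 ± 0.28, lay within its spot error of the threshold. The median of the 6 was then 0.06, and that of all genes 0.02. These 2 comparisons share no array with each other, but each shares an array with both treatment comparisons below.

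**Figure D1:**
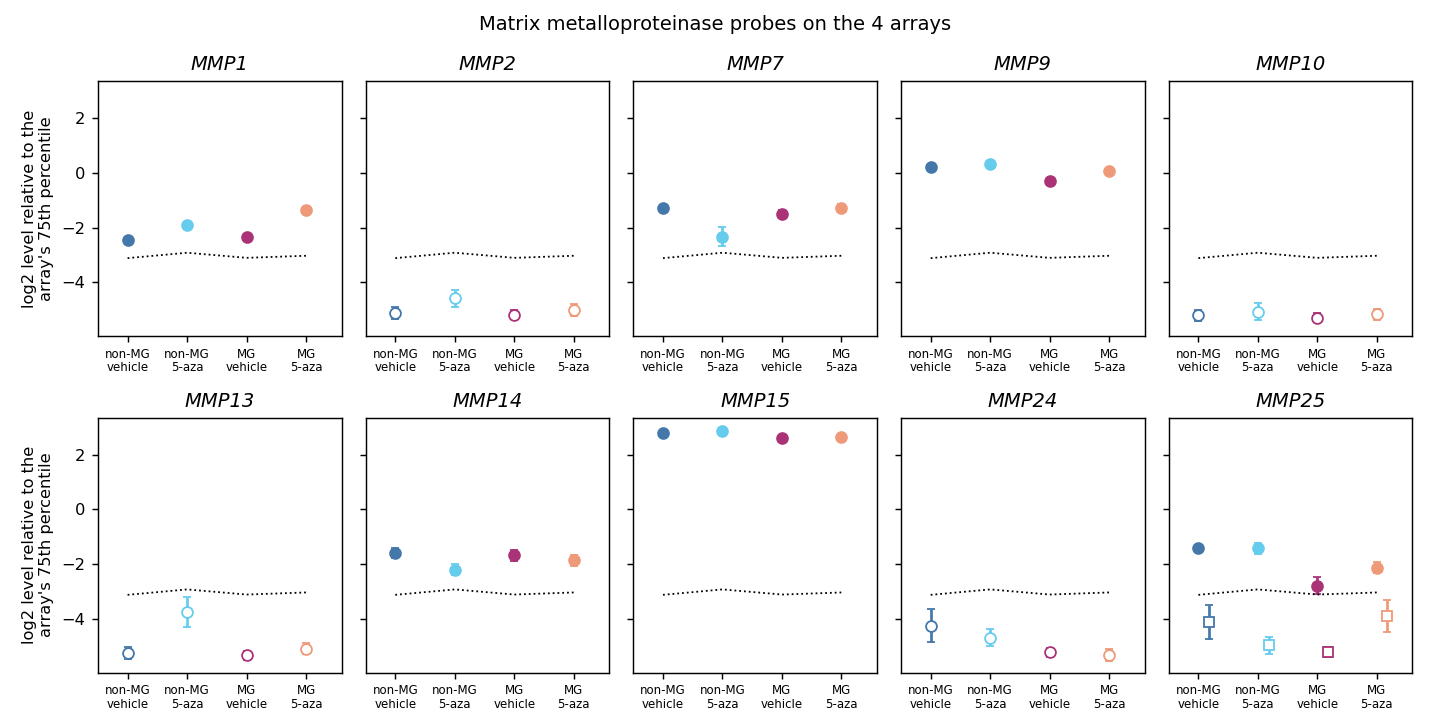
Level of each metalloproteinase probe on the 4 arrays, as log2 intensity relative to the 75th percentile of the array, with the spot error as bars. Filled symbols were well above background and open symbols were not, squares are the second probe of MMP25, and the dotted line is the lowest signal well above background on each array. MMP2, MMP10, MMP13 and MMP24 lie under the line on every array.

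MMP7, matrilysin, is the small secreted metalloproteinase of epithelial cells. Its intensity was 35.4 in non-MG cells with vehicle, 15.0 in non-MG cells with 5-azacytidine, 34.7 in MG cells with vehicle and 39.6 in MG cells with 5-azacytidine. The treated non-MG cells stood below the other conditions, which lay close together. With vehicle the MG over non-MG ratio was -0.21 ± 0.19, within 1.5-fold. With 5-azacytidine it was 1.05 ± 0.36, or 2.07-fold higher in MG cells. The treatment ratio was -1.03 ± 0.35 in non-MG cells, a 2.04-fold fall, and 0.23 ± 0.20 in MG cells. The lower array was only a little above the detection limit, and the gene has 1 spot per array.

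The promoter of MMP7 is shown because it holds motifs of AP-1 factors, measured below, and of the TCF/LEF factors of Wnt signalling, and the promoters of MMP14 and MMP15 are shown beside it because they differ from it in CG content, the substrate of the enzymes that 5-azacytidine inhibits. The 250 bases before the start of each gene are printed 5′ to 3′ from RefSeq on GRCh38.p14, on the strand of the gene. They lie at chr11:102530748-102530997 on the minus strand for MMP7, at chr14:22836335-22836584 on the plus strand for MMP14 and at chr16:58025504-58025753 on the plus strand for MMP15. Capitals mark CG dinucleotides and matches to the AP-1 motif TGAGTCA, the TCF/LEF motif TCAAAG and the TATA box TATAAA, each searched on both strands.
MMP7: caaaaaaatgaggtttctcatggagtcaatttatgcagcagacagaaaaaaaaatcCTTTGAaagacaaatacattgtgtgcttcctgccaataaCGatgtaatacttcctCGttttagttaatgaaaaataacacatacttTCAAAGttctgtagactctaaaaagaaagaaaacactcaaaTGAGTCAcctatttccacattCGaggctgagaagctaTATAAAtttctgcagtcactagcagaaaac
MMP14: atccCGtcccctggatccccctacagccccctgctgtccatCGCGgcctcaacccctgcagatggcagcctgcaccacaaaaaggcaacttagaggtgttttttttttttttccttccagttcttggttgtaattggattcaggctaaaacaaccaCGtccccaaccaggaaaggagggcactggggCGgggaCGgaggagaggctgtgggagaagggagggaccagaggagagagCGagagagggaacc
MMP15: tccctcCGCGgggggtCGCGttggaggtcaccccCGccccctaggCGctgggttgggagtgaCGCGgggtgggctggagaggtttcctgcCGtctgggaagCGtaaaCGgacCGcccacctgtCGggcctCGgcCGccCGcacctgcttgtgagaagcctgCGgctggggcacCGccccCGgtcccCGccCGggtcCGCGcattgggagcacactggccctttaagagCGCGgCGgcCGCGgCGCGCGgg
MMP7 had 3 CG dinucleotides, MMP14 7 and MMP15 31, against a median of 11 over 35116 promoters of the same length. The AP-1 motif lay 67 to 61 bases before the start of MMP7, and 4.2% of all promoters held it. TCAAAG occurred in MMP7 on each strand and in 11.21% of promoters, and TATAAA lay 30 to 25 bases before its start and occurred in 10.72%. The promoters of MMP14 and MMP15 held none of the 3 motifs. The promoter table also held MMP10, with 2 CG dinucleotides and TATAAA, and MMP24, with 25 and no motif. It had no entry for MMP1, MMP2, MMP9, MMP13 and MMP25, so their promoters were not searched. These are descriptions of sequence, and no methylation or binding was measured here.

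MMP1, interstitial collagenase, cleaves fibrillar collagen and lies in the same gene cluster on chromosome 11 as MMP7. Its probe was spotted 10 times on each array, and its mean intensity was 15.8 in non-MG cells with vehicle, 19.9 in non-MG cells with 5-azacytidine, 19.6 in MG cells with vehicle and 37.7 in MG cells with 5-azacytidine. The treated MG cells stood above the other conditions, and their 10 spots did not overlap the spots of MG cells with vehicle. These spots are repeats within 1 array per condition and do not measure the spread between cultures. How often other repeated probes separate in this way was not counted. The treatment ratio was 0.98 ± 0.11 in MG cells, a 1.97-fold rise, and 0.55 ± 0.09 in non-MG cells, which did not pass 1.5-fold. Between the cell types the ratio was 0.13 ± 0.12 with vehicle and 0.56 ± 0.08 with 5-azacytidine. On both vehicle arrays 9 of its 10 spots were well above background, and the gene was kept because most of its spots were, a rule settled after these spots had been seen. Where every spot had to pass, MMP1 was not measured and the count of risen members in MG cells was 1 of 5.

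**Figure D2:**
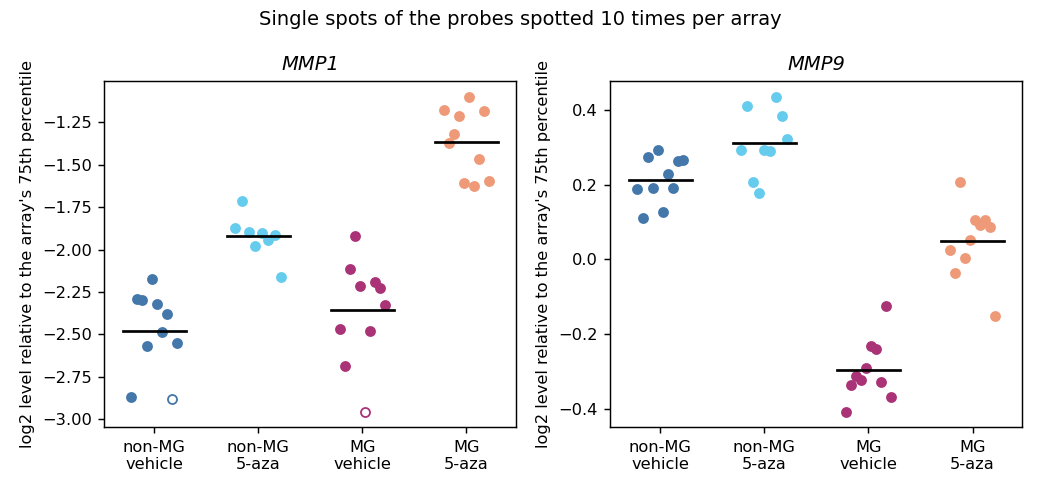
Single spots of MMP1 and MMP9 on each array, as log2 intensity relative to the 75th percentile of the array, with the mean as a line, filled where well above background. The MMP1 spots of MG cells with 5-azacytidine lie from -1.63 to -1.10 and those of MG cells with vehicle from -2.96 to -1.92.

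MMP9, gelatinase B, degrades basement membrane collagen, and ZNF350 has been described as a repressor of its promoter. Its mean intensity over its spots was 101 in non-MG cells with vehicle, 93.6 in non-MG cells with 5-azacytidine, 80.4 in MG cells with vehicle and 99.96 in MG cells with 5-azacytidine. The spots of MG cells with vehicle lay below those of non-MG cells with vehicle without overlap. They are repeat spots of 1 array per condition and do not measure the spread between cultures. As for MMP1, how often other repeated probes separate in this way was not counted. The MG over non-MG ratio was -0.51 ± 0.03 with vehicle and -0.26 ± 0.04 with 5-azacytidine, and neither passed 1.5-fold. The treatment ratio was 0.35 ± 0.04 in MG cells and 0.10 ± 0.04 in non-MG cells. ZNF350 itself was well above background on 3 of 4 arrays, all but MG cells with vehicle, where its intensity was 2.60. It was at least 3.11-fold lower in MG than in non-MG cells with vehicle. In treated MG cells it was at least 1.34-fold higher than in vehicle MG cells. The study chose ZNF350 from these same arrays as low in MG cells and raised by 5-azacytidine, so these values are not independent evidence.

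Of the membrane-bound members, MMP14 fell in non-MG cells with 5-azacytidine, MMP15 stayed within 1.5-fold in the 4 comparisons and MMP25 was lower in MG cells. MMP14, which activates the proenzyme of MMP2 at the cell surface, had an intensity of 29.1 in non-MG cells with vehicle, 16.4 in non-MG cells with 5-azacytidine, 30.9 in MG cells with vehicle and 26.8 in MG cells with 5-azacytidine. As with MMP7, the treated non-MG cells were lowest. The treatment ratio was -0.62 ± 0.27 in non-MG cells, a 1.53-fold fall, and -0.17 ± 0.29 in MG cells. MG over non-MG cells gave -0.09 ± 0.28 with vehicle and 0.35 ± 0.28 with 5-azacytidine.

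MMP15, a transmembrane relative of MMP14, had an intensity of 608 in non-MG cells with vehicle, 551 in non-MG cells with 5-azacytidine, 602 in MG cells with vehicle and 603 in MG cells with 5-azacytidine. The 4 values were close, and no ratio passed 1.5-fold. MG over non-MG cells gave -0.19 ± 0.09 with vehicle and -0.23 ± 0.08 with 5-azacytidine, and the treatment ratio was 0.03 ± 0.09 in MG and 0.07 ± 0.07 in non-MG cells.

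MMP25, a lipid-anchored protease known from leukocytes, had an intensity of 32.9 in non-MG cells with vehicle, 28.2 in non-MG cells with 5-azacytidine, 14.4 in MG cells with vehicle and 22.1 in MG cells with 5-azacytidine. Both MG arrays stood below both non-MG arrays. The MG over non-MG ratio was -1.37 ± 0.32 with vehicle, 2.59-fold lower, and -0.71 ± 0.28 with 5-azacytidine, 1.63-fold lower. The ratio with 5-azacytidine lay within its spot error of the threshold. The treatment ratio was 0.65 ± 0.36 in MG cells, a 1.57-fold rise, and -0.01 ± 0.23 in non-MG cells. The study chose MMP25 from these same arrays as a gene low in MG cells and raised by 5-azacytidine, so these values are not independent evidence of that direction. It also required more methylation of the gene in MG cells, measured on a separate methylation array. A second MMP25 probe did not stand well above background on the arrays, with intensities from 2.43 to 6.502. The 7 macrophage markers had summed intensities of 139 in non-MG and 65.5 in MG cells with vehicle. With 5-azacytidine the sums were 148 and 109.5. With vehicle the MSR1 probes had intensities of 35.6, 32.2 and 3.28 in non-MG cells and 2.46, 4.83 and 2.97 in MG cells. CSF1R gave 20.9 and 11.2, and CD14 17.1 and 13.5. PTPRC, CD163, C1QA and C1QB did not stand well above background under any condition. All cultures were HCT116 cells, so the sums are not a measure of macrophages. The part of these markers in the result was not tested.

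**Figure D3:**
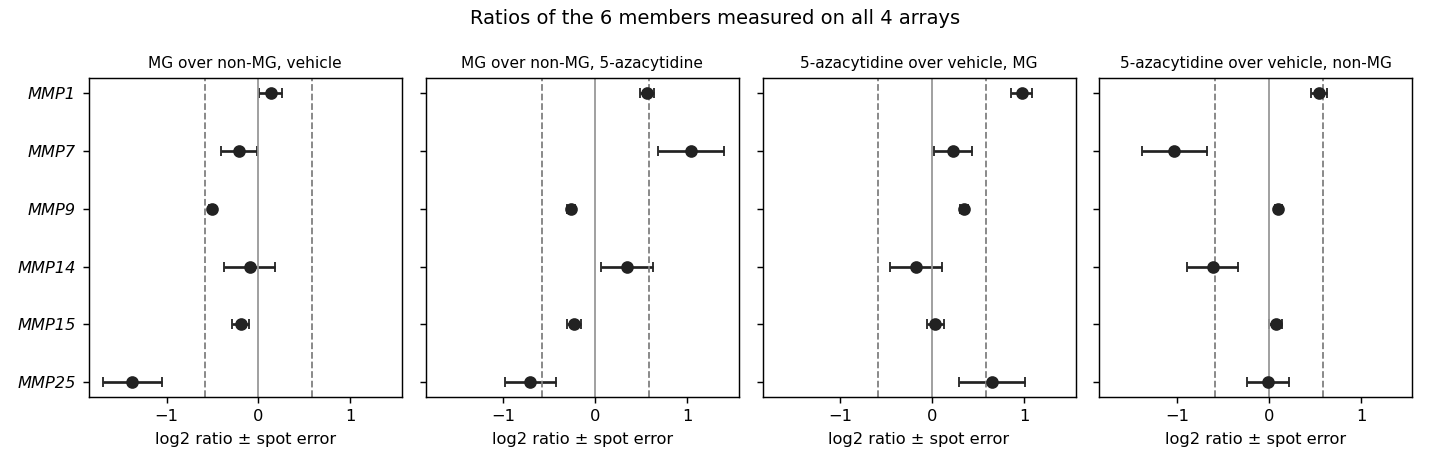
Log2 ratio of the 6 measured members in the 4 comparisons, with the spot error as bars and dashed lines at 1.5-fold. MMP25 lies left of the line in both comparisons of MG over non-MG cells, and MMP7 lies right of it with 5-azacytidine only, at 1.05.

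Counted over the members, 2 of 6 rose with 5-azacytidine in MG cells (MMP1 and MMP25), against 3.02% of all genes, and 0 fell, against 2.10%. In non-MG cells 0 of 6 rose, against 1.90%, and 2 fell (MMP7 and MMP14), against 1.68%. MMP25 had been chosen by the study from these same arrays for rising in MG cells, so its part in that count is not independent. MMP25 in MG cells (0.65 ± 0.36) and MMP14 in non-MG cells (-0.62 ± 0.27) lay within their spot error of the threshold. The median of the 6 was 0.29 in MG and 0.03 in non-MG cells, and that of all genes was -0.02 and -0.04. Under normexp background correction, which adds an offset of 50 to all signals, no member passed 1.5-fold in any comparison. The calls of MMP1, MMP7, MMP14 and MMP25 were all lost. The offset exceeds the intensity of these genes on every array and shrinks their ratios by construction. That setting therefore cannot decide whether the calls hold.

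The other 4 members did not stand well above background under any condition. MMP2, gelatinase A, reached at most an intensity of 3.13, MMP10, stromelysin 2, 2.69, MMP13, collagenase 3, 5.599, and the membrane-type MMP24 4.61. These bound the signal of the probes and do not show that the mRNA was missing. In the cluster on chromosome 11, which runs MMP7, MMP20, MMP27, MMP8, MMP10, MMP1, MMP3, MMP12 and MMP13, MMP7 and MMP1 were measured and the other 7 did not stand well above background under any condition.

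Of 13 further metalloproteinases 4 were measured, MMP11, MMP17, MMP19 and MMP28. With vehicle 0 were higher and 2 lower in MG cells, against 5.67% and 8.24% of all genes, and the lower ones were named after their values were seen: MMP11 at -0.62 ± 0.17 and MMP17 at -0.70 ± 0.10. By probes measured on all 4 arrays, none of the 4 passed 1.5-fold between the cell types with 5-azacytidine or for treatment in either cell type. Of all genes 5.74% were higher and 7.34% lower in the first of these comparisons. With treatment 3.02% rose and 2.10% fell in MG cells, and 1.90% and 1.68% in non-MG cells. A second MMP19 probe, well above background on 3 arrays and so left out of these counts, disagreed: it gave 1.02 ± 0.36 for treatment in MG cells, against 0.43 ± 0.36 for the counted probe, and 0.71 ± 0.39 for MG over non-MG cells with 5-azacytidine, against 0.23 ± 0.39. MMP23B was well above background in MG cells with 5-azacytidine only, at least 1.96-fold above MG cells with vehicle.

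Among 7 inhibitors 3 were measured. TIMP1, a secreted inhibitor of most metalloproteinases, had an intensity of 2396 in non-MG cells with vehicle, 1893 in non-MG cells with 5-azacytidine, 1647 in MG cells with vehicle and 1911 in MG cells with 5-azacytidine. It was lower in MG cells with vehicle, at -0.72 ± 0.08, and gave -0.35 ± 0.07 with 5-azacytidine. TIMP2, which also takes part in MMP2 activation, gave 0.22 ± 0.08 and 0.08 ± 0.06, and the membrane-anchored inhibitor RECK -0.27 ± 0.13 and -0.36 ± 0.12. TIMP3 and TIMP4 did not stand well above background under any condition. A2M, a broad protease inhibitor, was well above background in non-MG cells with vehicle only, at an intensity of 17.4, and was at least 1.72-fold lower in MG cells with vehicle. TFPI2, an inhibitor of serine proteases and some metalloproteinases, was well above background in MG cells with 5-azacytidine only, at 52.3, at least 4.66-fold above MG cells with vehicle and at least 4.10-fold above non-MG cells with 5-azacytidine. A2M and TFPI2 were named after their values were seen. Of the 3 measured on all arrays 0 were higher in MG cells with vehicle and 1 was lower, against 5.67% and 8.24% of all genes.

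Of the 4 proprotein convertases, several of which cleave membrane-type proenzymes, and basigin, all 5 were measured, and 0 were higher and 2 lower in MG cells with vehicle, against 5.67% and 8.24% of all genes. FURIN was lower at -0.82 ± 0.19 with vehicle and gave -0.15 ± 0.24 with 5-azacytidine. It fell with 5-azacytidine in non-MG cells, at -0.65 ± 0.23, against 1.68% of all genes. PCSK5 was lower in both as the mean of 2 probes, at -0.68 ± 0.15 and -0.95 ± 0.12, but the probes disagreed. Its brightest probe gave -0.40 ± 0.10 and -0.30 ± 0.09, within 1.5-fold, and the dimmer one -0.96 ± 0.28 and -1.60 ± 0.23. With the brightest probe alone, the count of lower genes in this list was 1 with vehicle and 0 with 5-azacytidine. PCSK6 was within 1.5-fold by its counted probe, at -0.52 ± 0.24 with vehicle and -0.06 ± 0.28 with 5-azacytidine. Its other probe was well above background in non-MG cells only, and was at least 1.44-fold and at least 1.70-fold lower in MG cells. The study chose PCSK6, like MMP25, from these same arrays as low in MG cells and raised by 5-azacytidine. Its values are therefore not independent evidence. Of 5 measured plasminogen activator genes 0 passed 1.5-fold with vehicle, against 5.67% of all genes higher and 8.24% lower. With 5-azacytidine 1, PLAU, was higher, at 0.61 ± 0.06, against 5.74% of all genes, a call lost under quantile normalization. Of 4 measured membrane serine proteases and inhibitors 2 were lower with vehicle, PRSS8 at -0.66 ± 0.08 and SPINT1 at -0.59 ± 0.09, against 8.24% of all genes. With 5-azacytidine 0 passed, against 5.74% of all genes higher and 7.34% lower. SPINT1 lay at the threshold with vehicle, and the count there was 1 under median centring and in the authors' table. PCSK6, PLAU, PRSS8 and SPINT1 were named after their values were seen.

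Of 7 measured ADAM and ADAMTS genes 1 was higher and 1 lower with vehicle, against 5.67% and 8.24% of all genes, and 1 was higher with 5-azacytidine, against 5.74%. ADAM19 was higher in MG cells in both, at 0.59 ± 0.09 and 0.62 ± 0.07, and quantile normalization took it to 0.536 and 0.529, inside the threshold. With its second, dim probe averaged in, the vehicle ratio was 0.365. ADAM8, a sheddase of leukocytes and tumour cells, lay at the threshold with vehicle, at -0.59 ± 0.11, a call lost under median centring (-0.571) and in the authors' table (-0.582). It rose with 5-azacytidine in both cell types, by 0.997 ± 0.12 in MG and 0.77 ± 0.10 in non-MG cells. Among the 7 genes it alone rose, against 3.02% of all genes in MG and 1.90% in non-MG cells. ADAM15 alone fell, in non-MG cells only, at -0.59 ± 0.06, against 1.68% of all genes. Of 6 measured cathepsins 1 was lower in MG cells both with vehicle and with 5-azacytidine, against 8.24% and 7.34% of all genes. It was CTSK, a collagen-cleaving cysteine protease, at -0.89 ± 0.11 and -0.68 ± 0.10. With treatment 0 cathepsins passed in MG cells, against 3.02% of all genes risen and 2.10% fallen. In non-MG cells 1, CTSB, fell, at -0.71 ± 0.07, against 1.68% of all genes. ADAM15 and CTSB were named after their values were seen.

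AP-1 and ETS factors bind the promoters of several metalloproteinases, and 12 of 13 listed were measured. In MG cells 1 was higher and 4 were lower with vehicle, against 5.67% and 8.24% of all genes, and the counts with 5-azacytidine were also 1 and 4, against 5.74% and 7.34%. Under normexp the count of lower genes with 5-azacytidine was 1. FOS gave -1.27 ± 0.11 in both comparisons, FOSB -1.88 ± 0.24 and -1.24 ± 0.23, JUNB -1.47 ± 0.16 and -1.02 ± 0.16, and FOSL2 -0.95 ± 0.17 and -0.98 ± 0.16. FOSL1, which encodes Fra-1, was the higher one, at 0.61 ± 0.09 and 0.76 ± 0.10. None of the 12 passed 1.5-fold for 5-azacytidine in either cell type. Of all genes only 3.02% rose and 2.10% fell in MG cells, and 1.90% and 1.68% in non-MG cells. With 12 genes, that count does not set the list apart from all genes. The median of the 12 was -0.44 with vehicle and -0.29 with 5-azacytidine, and that of all genes -0.01 and 0.02.

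**Figure D4:**
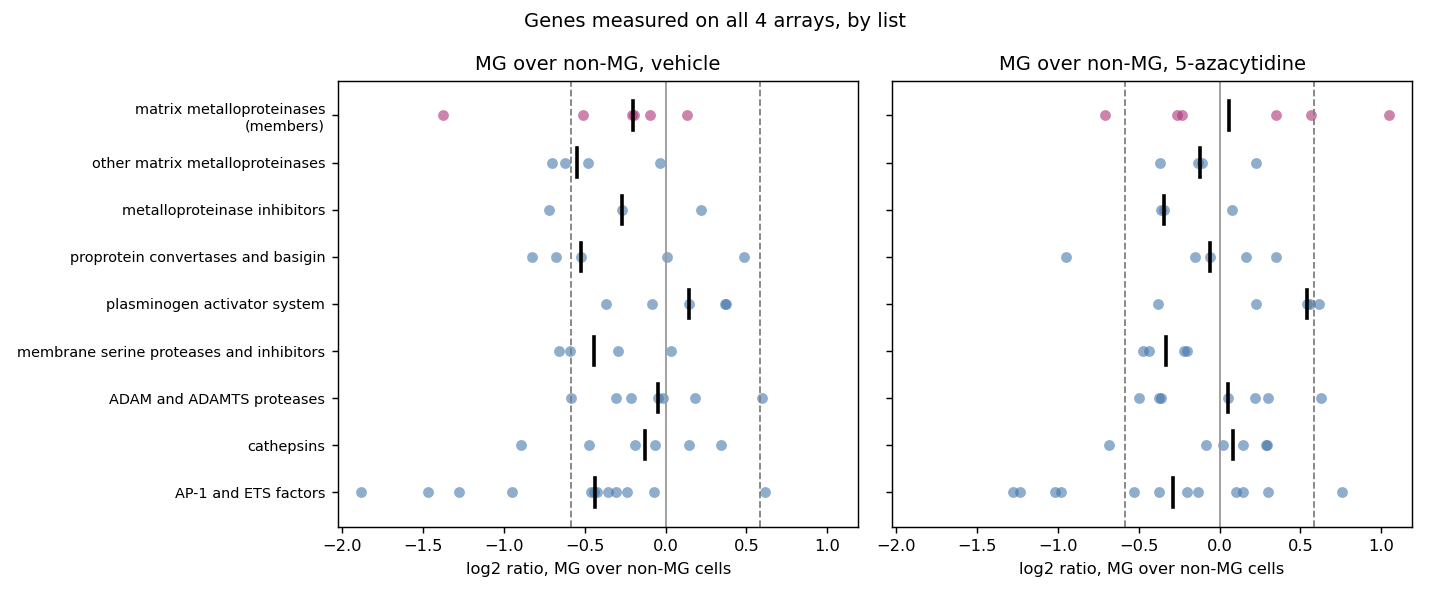
MG over non-MG ratios (log2), left with vehicle and right with 5-azacytidine, for the members and 8 lists of related genes, 1 point per gene measured on all 4 arrays, with the median as a bar and dashed lines at 1.5-fold. The AP-1 and ETS factors reach -1.88 with vehicle, and the members spread from -1.37 to 0.13 with vehicle and from -0.71 to 1.05 with 5-azacytidine.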

How the data were processed

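Total RNA (400 ng) of the 4 cultures was labelled with Cy3 and hybridised to SurePrint G3 Human arrays. Per array the authors deposited scanner output from Agilent Feature Extraction 11.5.1.1, with a linear background-corrected intensity and flags per spot. They also deposited log2 values of 24189 probes. Of these, 24161 were compared with the scanner values, and for 99.7% to 99.8% the differences between arrays lay within 0.01 of them up to a constant, which was within 0.0038 of the 75th percentile scaling. The table's column medians were 0.0133, -0.0087, 0.0066 and -0.0115, and the deposited log2 values served as an alternative only.

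After control and outlier spots were dropped, 50594 of 50599 probes remained, and repeat spots were averaged. The log2 of the 75th percentile of each array was subtracted. Probes were named by accession through RefSeq of GRCh38.p14, which named 59.3% of probes, and ratios of probes well above background on all 4 arrays were averaged per gene. A probe with 10 spots counted as above background where most of its spots were; this rule was chosen after seeing the spots of MMP1. Named beside the members were TIMP1, TIMP2, TIMP3, RECK, FURIN and ZNF350, and up to 6 genes per list past 1.5-fold in the same direction in both comparisons of cell type or of treatment. Members and lists were chosen with earlier results of these data known. The counting was tried on simulated data with spot error only and changes well past 1.5-fold. That trial does not cover calls near 1.5-fold or the spread between cultures. Python 3.11.15, pandas 2.3.3, numpy 2.4.6, R 4.3.3 and limma 3.58.1 (normexp, offset 50) were used.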

Additional observations from a re-analysis of the deposited data

Results flagged for a closer look

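In 2 members the treatment ratio had opposite signs in the cell types, and with 1 array per condition the difference was not tested. For MMP7 the log2 ratio of 5-azacytidine over vehicle in MG cells minus that in non-MG cells was 1.26 (0.23 ± 0.20 against -1.03 ± 0.35). For MMP25 it was 0.67 (0.65 ± 0.36 against -0.01 ± 0.23), and the value in non-MG cells was smaller than its spot error. Under normexp the differences were 0.397 for MMP7 and 0.116 for MMP25.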

How the results depend on the processing

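Under normexp with an offset of 50, the count of members past 1.5-fold was 0 in each direction of all 4 comparisons. MMP7 in non-MG cells then gave -0.266 for 5-azacytidine and MMP25, between the cell types with vehicle, -0.492. This correction starts from the median signal and median background of each spot, and its offset shrinks the ratios of dim probes by construction. The same correction changed the split over all genes, from 891 higher and 1295 lower to 464 and 327 with vehicle, from 901 and 1153 to 722 and 182 with 5-azacytidine, from 474 and 330 to 137 and 50 for treatment in MG cells, and from 298 and 264 to 55 and 78 in non-MG cells. With no filter on dim probes 2 members were lower in MG cells with vehicle, 2 were lower with 5-azacytidine and 1 rose with 5-azacytidine in non-MG cells; MMP25 in MG over non-MG cells with 5-azacytidine turned to 0.178, since its second probe, not well above background, was averaged in. Quantile normalization gave 2 members higher in MG cells with 5-azacytidine. At 2-fold, 0 members were lower in MG cells with 5-azacytidine, 0 rose in MG cells and 1 fell in non-MG cells. At 1.4-fold, 2 were lower with vehicle, 2 were higher with 5-azacytidine and 1 rose in non-MG cells. Requiring every spot well above background, an alternative added after seeing the data, left 1 risen member in MG cells. The counts of members did not change under median centring, probes above background on at least 1 array, the brightest probe of a gene, signals raised to the detection limit or the authors' table. Naming probes by the gene name in the array files was not run, as those files hold no such column, nor was the slide as a block, as there was 1 slide. No paired analysis was possible because the groups share a single replicate number; an additive fit of cell type and treatment over the 4 arrays, with 1 residual degree of freedom, was not made. Under normexp TIMP1 gave -0.521, FURIN -0.340 and PCSK5 -0.330 for the cell types with vehicle, inside 1.5-fold, and of the further metalloproteinases 0 were lower. Apart from MMP9 and MMP15, the measured members had intensities under 40, near the detection limit, which limits the precision of their ratios.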
